A study of Mus musculus with 73 samples.

Results

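Chic1, Nap1l2 and Tsx are protein-coding genes by RefSeq biotype that lie on the Tsix side of the mouse X-inactivation centre, the stretch of the X chromosome that starts X inactivation. They were taken by symbol from the table of RNA-seq counts, where they are ENSMUSG00000031327.9 (Chic1), ENSMUSG00000082229.1 (Nap1l2) and ENSMUSG00000031329.4 (Tsx), 3 of 37310 gene identifiers. All 3 had enough counts to be among the 16636 genes tested. In the libraries of the 70kb [Xite-Jpx] allele each of the 3 genes was measured below every wild-type library, Tsx by the most (3.86-fold below its own wild type). In the libraries of the 40kb [Tsix-Xist] allele Nap1l2 was 2.23-fold below its wild type, while Tsx was 1.36-fold above it. No fold change of the 3 genes in either allele passed the threshold of the main test, an adjusted p under 0.05.

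The X-inactivation centre holds Xist, the noncoding RNA that coats and silences an X chromosome, and Tsix, which is transcribed antisense across Xist and restrains it. Genes around Xist and genes around Tsix lie in separate topologically associating domains, regions of chromatin that contact themselves more than their surroundings, with the border between both genes. Chic1 encodes a cysteine-rich, membrane-associated protein and is also known as Brx, Nap1l2 is an intronless histone chaperone gene of the nucleosome assembly family active in neurons, and Tsx was first described as a testis transcript next to Xite, an enhancer region of Tsix.

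The cells were E14Tg2a, an established male (XY) mouse embryonic stem (ES) cell line of 129/Ola origin, kept undifferentiated with serum and leukemia inhibitory factor and without feeder cells. Of 73 samples in the series, the 12 RNA-seq libraries were used. They comprise 4 libraries of the 40kb [Tsix-Xist] allele (2 clones with 2 replicates each) with 2 wild-type libraries labelled as corresponding to it, and 4 libraries of the 70kb [Xite-Jpx] allele (2 clones with 2 replicates each) with 2 wild-type libraries of their own. In the sample names the wild type is E14 in the 40kb set and E14.2 in the 70kb set, so the unedited cells of both sets may differ. Edits in the series were inversions or deletions made with CRISPR or TALENs; which kind each of these alleles is, the genotype labels leave unsaid. Each clone is a single editing event, and nothing says that its replicates were separate cultures, so p-values measure the spread between these libraries, which may be partly technical. The comparisons ask how the genes next to Tsix are expressed in cells with an edited allele of this region.

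The start regions of 2 of the 3 genes are shown because they differ in base composition. Each is the 250 bases upstream of the RefSeq start on GRCm38.p6, on the plus strand, at chrX:103356226-103356475 for Chic1 and chrX:103414217-103414466 for Tsx, with every CG dinucleotide in capitals.
Chic1: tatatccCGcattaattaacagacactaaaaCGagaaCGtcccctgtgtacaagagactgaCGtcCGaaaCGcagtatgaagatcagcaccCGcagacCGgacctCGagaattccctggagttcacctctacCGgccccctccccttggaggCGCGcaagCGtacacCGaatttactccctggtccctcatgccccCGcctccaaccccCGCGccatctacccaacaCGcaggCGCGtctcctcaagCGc
Tsx: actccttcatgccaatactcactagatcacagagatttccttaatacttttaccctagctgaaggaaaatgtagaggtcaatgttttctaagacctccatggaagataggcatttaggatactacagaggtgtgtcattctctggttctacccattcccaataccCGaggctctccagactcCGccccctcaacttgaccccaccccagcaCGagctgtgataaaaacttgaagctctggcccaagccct
The Chic1 window holds 21 CG dinucleotides at 58.4% GC, and the Tsx window 3 at 47.2% GC, against medians of 6 and 52.4% over 32851 RefSeq windows of the same length. The observed CG count over that expected from base composition was 1.09 for Chic1, above 97.6% of all windows, and 0.23 for Tsx, above 34.1% of them. On either strand, TATAAA (found in 12.4% of all windows) and CACGTG (6.02%) occur in neither window. CCAAT (33.8%) occurs 2 times upstream of Tsx and not upstream of Chic1, and GGGCGG (32.7%) occurs 1 time upstream of Tsx, as its reverse complement, and not upstream of Chic1. These are matches of letters and not measured binding.

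Library totals ran from 34514493 to 46605508 counts. Both libraries of 40kb clone 1 differed from each other by a chi-square of 131 per degree of freedom over genes. The pairs of the 5 other groups gave 24.5 to 48.6. This value does not tell which library of the pair is unlike the rest. Replicate 1 was the highest of the 40kb libraries in all 3 genes and is called the library that stands apart. The 40kb values are given with and without it. It was picked out by the values under test, so calls gained without it are not independent support. Levels are CPM, counts scaled to a common library total after TMM scaling (which sets each library by the bulk of its genes), and are not divided by gene length. Marker genes of undifferentiated ES cells were expressed throughout, with summed levels of Pou5f1, Nanog, Sox2, Zfp42, Esrrb and Klf4 of 3621 to 4149 CPM in 40kb libraries against 2382 and 2891 CPM in their wild type, and of 2521 to 3633 CPM in 70kb libraries against 2895 and 3300 CPM in theirs. None of the 6 passed the test in either allele.

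**Figure D1:**
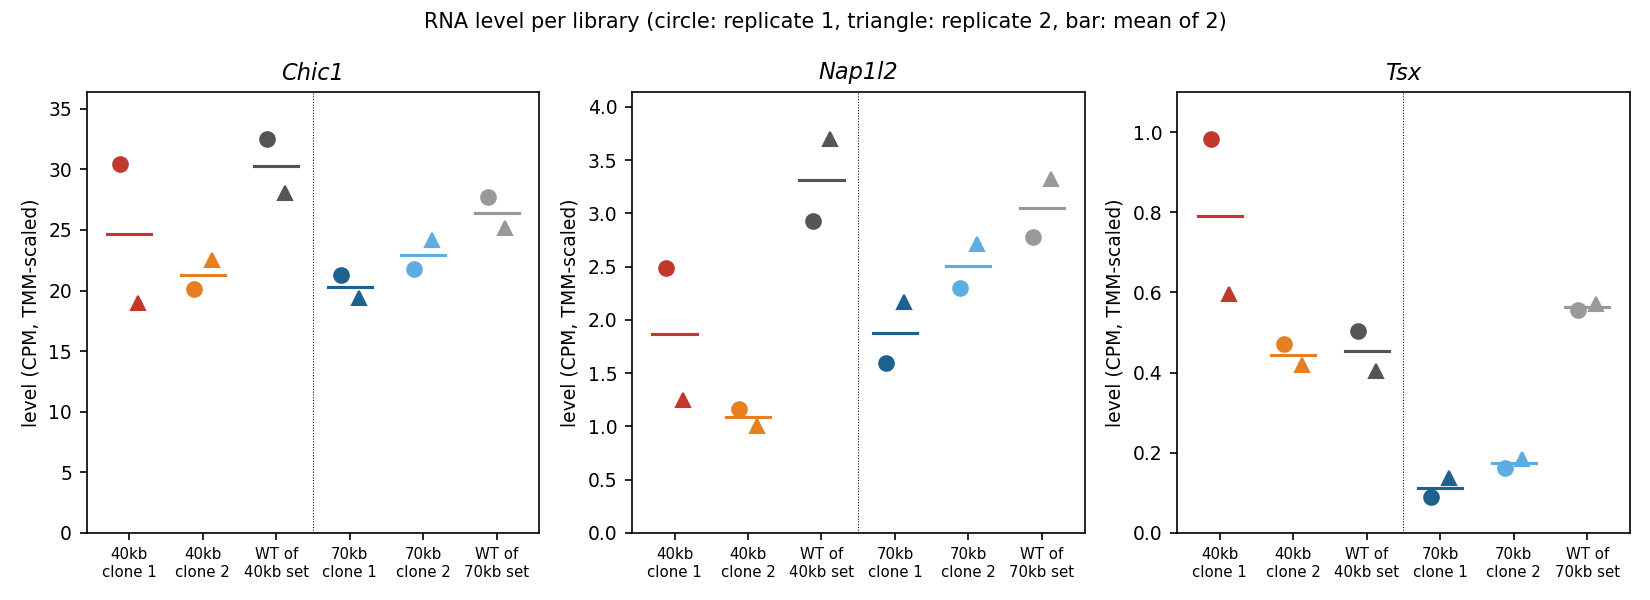
RNA level in CPM (linear axes from 0, a scale per gene) of Chic1, Nap1l2 and Tsx in each of the 12 libraries, with replicate 1 as a circle, replicate 2 as a triangle and a bar at the mean of the 2 libraries of a group. All 4 libraries of the 70kb allele lie below both of their wild-type libraries in each panel, and 40kb clone 1 replicate 1 is the highest of its allele in each.

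Tsx is the gene of the 3 that lies nearest to Tsix. It had 0.0884 and 0.135 CPM in 70kb clone 1 and 0.162 and 0.184 CPM in 70kb clone 2, against 0.556 and 0.572 CPM in their wild type. These are 3, 5, 6 and 7 reads in the 70kb libraries against 23 and 22 reads in wild type, so all 4 edited libraries were low and the groups did not overlap. Pooled, 21 reads gave 0.144 CPM in the 70kb libraries, with an exact 95% Poisson interval of 0.0892 to 0.220 CPM, against 45 reads and 0.563 CPM (0.411 to 0.754) in wild type; the intervals cover counting error only. The log2 fold change was -1.95 (SE 0.43, 95% interval -2.89 to -1.01), the 4th smallest unadjusted p (0.00064, edgeR quasi-likelihood test) of 16636 genes, with an adjusted p of 1 after Benjamini-Hochberg adjustment over all of them. It was low in both clones, at -2.29 (SE 0.49) in clone 1 and -1.68 (SE 0.45) in clone 2.

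Chic1 is the most strongly covered of the 3 genes. It had 21.3 and 19.3 CPM in 70kb clone 1 and 21.8 and 24.1 CPM in 70kb clone 2, against 27.7 and 25.1 CPM in their wild type. Its edited libraries again all lay below the wild-type ones, by a smaller distance. The log2 fold change was -0.29 (SE 0.18, 95% interval -0.69 to 0.11, adjusted p = 1, edgeR). Nap1l2 had 1.59 and 2.17 CPM in 70kb clone 1 and 2.30 and 2.71 CPM in 70kb clone 2, against 2.78 and 3.33 CPM in their wild type. Here too the edited libraries all lay below both wild-type libraries, which includes the one they are paired with by number. For this histone chaperone gene the log2 fold change was -0.48 (SE 0.35, 95% interval -1.24 to 0.29, adjusted p = 1, edgeR).

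All 3 genes therefore had every 70kb library below both corresponding wild-type libraries, an arrangement in that direction found for 3.08% of the 16636 tested genes. The same held against all 4 wild-type libraries of both sets, which 0.872% of tested genes did in that direction. The neighbouring pseudogene Gm6206 shared this arrangement, at 0.947 to 1.41 CPM in 70kb libraries against 1.45 to 2.05 CPM in wild type. The groups overlapped for the neighbours Cdx4, Tsix and 4930519F16Rik. The median log2 fold change of the 3 genes was -0.48, where that of all tested genes was 0.00. On the log2(CPM + 0.5) scale the exact two-sided permutation test against the 2 corresponding wild-type libraries gave 0.0667 for Chic1, 0.2 for Nap1l2 and 0.0667 for Tsx, the smallest p that 4 against 2 libraries can give being 0.0667; this test takes no account of the pairing by replicate number. Against all 4 wild-type libraries each of the 3 genes gave 0.0286, the smallest p of 4 against 4 libraries in this exact permutation test. Groups of 4 that do not overlap always give this p, so it only restates the arrangement above. The test also treats the libraries of a clone as independent and pools both wild-type sets. Over the whole table edgeR called 0 of 16636 genes in the 70kb comparison (0%), and DESeq2 called 3 (0.018%). In edgeR 100 genes (0.601%) had an unadjusted p under 0.05, a smaller share than the fraction of 0.05 that unchanged genes would give. The fit shares 1 spread over both sets and holds no term for the pairing. Its 0 calls therefore do not show that no gene changed. None of the 3 genes was called by either tool.

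In the 40kb libraries Nap1l2 and Chic1 had mean levels below wild type and Tsx one above it. Nap1l2 had 2.49 and 1.25 CPM in 40kb clone 1 and 1.16 and 1.01 CPM in 40kb clone 2, against 2.93 and 3.70 CPM in their wild type. These are 109, 46, 47 and 36 reads in the 40kb libraries against 128 and 146 reads in wild type, and all 4 edited libraries lay below both wild-type libraries, as 19.7% of tested genes did in that direction. The log2 fold change was -1.16 (SE 0.35, 95% interval -1.92 to -0.40) with an adjusted p of 0.0686 (edgeR). This misses the threshold in a comparison where 6.43% of tested genes were called, 5.67% as lower (127 genes higher and 943 lower, against 440 and 1434 with DESeq2). Without 40kb clone 1 replicate 1, picked out by its values in these genes, the value was -1.55. It then passed the test (adjusted p = 0.0347, edgeR), with 3.19% of 16510 genes called. It also passed with DESeq2 (-1.18, adjusted p = 0.0189), where 11.3% of genes were called, and against all 4 wild-type libraries (-1.10, adjusted p = 0.0379, edgeR), where 7.23% were called. Over all alternatives its adjusted p ran from 0.0189 to 0.439.

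Chic1 had 30.4 and 19.0 CPM in 40kb clone 1 and 20.1 and 22.5 CPM in 40kb clone 2, against 32.5 and 28.0 CPM in their wild type. Of the edited libraries 3 lay below both wild-type libraries and the library that stands apart lay between them, so the groups overlapped. The log2 fold change was -0.40 (SE 0.18, unadjusted p = 0.05, adjusted p = 0.212, edgeR). Without 40kb clone 1 replicate 1, picked out by its values in these genes, it was -0.57 and passed the test (adjusted p = 0.0475, edgeR). Over all alternatives the adjusted p of Chic1 ran from 0.0475 to 0.665.

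Tsx had 0.982 and 0.597 CPM in 40kb clone 1 and 0.470 and 0.419 CPM in 40kb clone 2, against 0.504 and 0.405 CPM in their wild type. Both libraries of clone 1 were above both wild-type libraries and both of clone 2 were between them. The log2 fold change was 0.44 (SE 0.41, 95% interval -0.44 to 1.33, adjusted p = 0.538, edgeR), and it was 0.11 without 40kb clone 1 replicate 1. Taken alone, clone 1 gave 0.80 (SE 0.39) and clone 2 gave -0.03 (SE 0.41). In the exact permutation test against the corresponding wild type, Chic1 gave 0.2, Nap1l2 0.0667 and Tsx 0.6, the smallest possible p again being 0.0667.

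Marker genes of other cell types differed with the 40kb comparison. Of 9 tested fibroblast and smooth muscle markers 7 were called lower and 0 higher in 40kb libraries (median log2 fold change -4.62), with summed levels of the list of 6.90 to 39.2 CPM against 258 and 334 CPM in wild type. Among 9 tested trophoblast markers 5 were called lower and 0 higher (median -3.41), with summed levels of 43.0 to 133 CPM against 509 and 622 CPM. Col1a1, a fibroblast collagen gene, was at -4.62 (adjusted p = 0.0397, edgeR) and Cdx2, a trophoblast transcription factor gene, at -4.35 (adjusted p = 0.0235, edgeR). Of these markers Lum had 0 counts in 7 of the 12 libraries, Postn in 5, Elf5 in 3, Col3a1 and Cdx2 in 2 each, and Dcn and Gata3 in 1 each. These calls depended on the wild type: with either wild-type library of the 40kb set left out, edgeR called 0 genes in the 40kb comparison, with 2637 (without replicate 1) and 1968 (without replicate 2) at an unadjusted p under 0.05. In the 70kb comparison none of either list was called, and the summed levels overlapped, at 40.7 to 550 CPM of fibroblast and smooth muscle markers against 72.2 and 291 CPM in wild type and 146 to 787 CPM of trophoblast markers against 162 and 490 CPM. In these bulk libraries fewer cells of a type and less RNA per cell cannot be told apart, and the part of other cells in the levels of Chic1, Nap1l2 and Tsx was not tested.

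Markers of neurons were set beside Nap1l2, a gene known from neurons. Of 7 tested neural markers 2 were called lower in 40kb libraries, the progenitor filament gene Nes (log2 fold change -2.43, adjusted p = 0.0289, edgeR) and the synaptic vesicle gene Syt1 (-2.91, adjusted p = 0.0208, edgeR), and 0 were called higher. The summed neural level was 329 to 521 CPM in 40kb libraries against 379 and 417 CPM in wild type. None of the 7 was called in 70kb libraries, where the sum was 310 to 473 CPM against 373 and 393 CPM in wild type. Of the other 5, Pax6 (30.8 ± 11.9 CPM in 40kb libraries against 18.9 ± 5.79 CPM in wild type; SD, n = 4 and 2), Tubb3 (51.7 ± 20.5 against 39.8 ± 11.7 CPM) and Stmn2 (270.4 ± 127 against 214 ± 14.16 CPM) had higher means in 40kb libraries, with groups that overlapped, and Map2 (log2 fold change -0.44) and Snap25 (-0.92) lower fitted values, none of them called.

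Testis and germline markers were set beside Tsx, a gene first found in testis. Of this list the early germline genes were expressed in every library. Sycp3, a meiotic chromosome protein gene, had 63.9 ± 17.3 CPM in 40kb libraries against 63.3 ± 17.4 CPM in wild type, and 60.3 ± 7.59 CPM in 70kb libraries against 59.9 ± 14.8 CPM in wild type (SD, n = 4 and 2 each). Dazl, Ddx4 and Mael, also germline genes, had means of 7.46 to 28.0 CPM over the groups. The sperm packaging genes Prm1 and Tnp1 had 0 counts in all 12 libraries. Sox9, Tex101 and Amh of the list had low means, of 0.0525 to 0.560 CPM over the groups. Sox9 had 0.0525 ± 0.0467 CPM in 40kb libraries against 0.560 ± 0.533 CPM in wild type (8 against 45 reads). In 70kb libraries it had 0.114 ± 0.0720 CPM against 0.374 ± 0.427 CPM. The summed level of the list was 87.1 to 155 CPM in 40kb libraries against 106 and 118.5 CPM in wild type, and 100.6 to 121 CPM in 70kb libraries against 95.03 and 118 CPM in wild type. None of the 6 tested markers was called in either comparison.

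**Figure D2:**
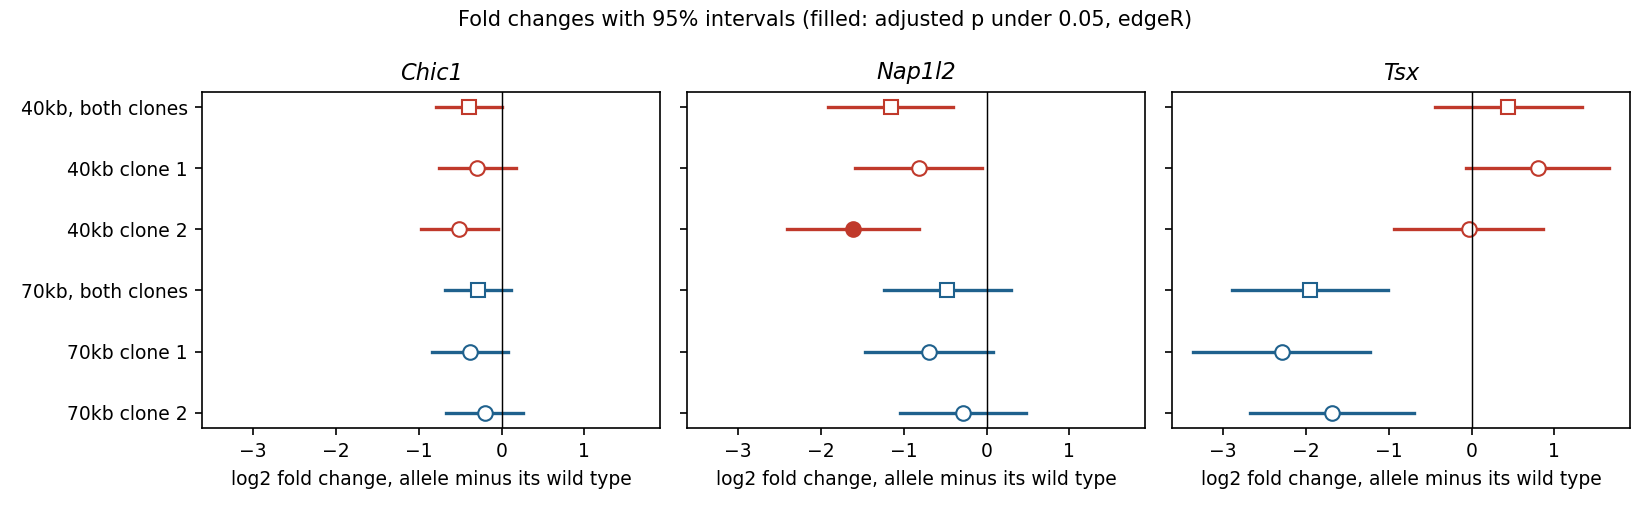
Log2 fold change (allele minus its wild type) of each gene with its 95% interval, for both clones together (squares) and for each clone (circles), in red for 40kb and blue for 70kb. The single filled symbol, with an adjusted p under 0.05, is Nap1l2 in 40kb clone 2 at -1.61, and the 3 intervals of Tsx in the 70kb allele lie wholly below 0.

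Between clones of an allele no difference of the 3 genes passed the test, in comparisons where 0.0661% (40kb) and 0.012% (70kb) of genes were called. In the 40kb allele clone 2 minus clone 1 was -0.22 for Chic1 (adjusted p = 0.604), -0.79 for Nap1l2 (adjusted p = 0.307) and -0.83 for Tsx (adjusted p = 0.318, edgeR). Without clone 1 replicate 1 these values were 0.17 for Chic1, -0.20 for Nap1l2 and -0.42 for Tsx, and without clone 1 replicate 2 that of Nap1l2 was -1.20 (adjusted p = 0.0385, edgeR; over its alternatives the adjusted p ran to 1). In that last fit clone 1 is a single library, the one that stands apart, its spread is assumed to be that of the other groups, and 2907 of 16595 genes were called. In the 70kb allele it was 0.18 for Chic1 (adjusted p = 0.839), 0.41 for Nap1l2 (adjusted p = 0.77) and 0.61 for Tsx (adjusted p = 0.796, edgeR). Against the wild type, Nap1l2 was at -0.82 (adjusted p = 0.135) in 40kb clone 1, where 14.9% of genes were called, and at -1.61 (adjusted p = 0.0426, edgeR) in clone 2, where 3.19% were. Chic1 was at -0.29 and -0.51 in 40kb clones 1 and 2 and at -0.38 and -0.20 in 70kb clones 1 and 2.

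Tsx differed most between the alleles. The 40kb effect minus the 70kb effect was 2.39 on the log2 scale (SE 0.60, 95% interval 1.09 to 3.70, unadjusted p = 0.0017, adjusted p = 0.169, edgeR). All 4 libraries of the 40kb allele (0.419 to 0.982 CPM) lay above all 4 of the 70kb allele (0.0884 to 0.184 CPM), as 4.14% of tested genes did in that direction. The exact permutation test between these 8 libraries gave the smallest possible p of 0.0286, which this lack of overlap fixes by itself. With all 4 wild-type libraries as a common reference the wild type cancels, and the value is the 40kb level minus the 70kb level. It was 2.09 and passed the test (adjusted p = 0.0201, edgeR), where 3.66% of genes were called. Allele and set cannot be told apart in it. Over all alternatives of the difference of effects the adjusted p (edgeR or DESeq2) ran from 0.0201, in this setting, to 0.799. For Nap1l2 the difference of effects was -0.68 (SE 0.51, 95% interval -1.79 to 0.42, adjusted p = 0.628), and for Chic1 it was -0.11 (SE 0.26, 95% interval -0.67 to 0.46, adjusted p = 0.899, edgeR). Without 40kb clone 1 replicate 1 the difference of effects was 2.05 for Tsx (adjusted p = 0.184), -1.08 for Nap1l2 (adjusted p = 0.237) and -0.29 for Chic1 (adjusted p = 0.497, edgeR). In the exact permutation test between 40kb and 70kb libraries Nap1l2 gave 0.114 and Chic1 0.771. The test of this difference called 0 of 16636 genes in edgeR (0%), where 2128 had an unadjusted p under 0.05, and 399 (2.4%) by DESeq2.

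The unedited libraries of both sets were compared in the same fit, to show how far the choice of wild type can move a value. The wild type of the 40kb set minus that of the 70kb set was 0.19 (SE 0.21) for Chic1, 0.12 (SE 0.41) for Nap1l2 and -0.31 (SE 0.47) for Tsx, each with an adjusted p of 0.997 (edgeR), in a comparison where edgeR and DESeq2 called 0% of genes and 394 had an unadjusted p under 0.05 in edgeR. For Tsx the wild-type levels of 0.405 to 0.572 CPM over both sets all exceeded the highest 70kb level of 0.184 CPM.

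By mean level, Chic1 ran from 20.3 CPM in 70kb clone 1 through 21.3 CPM in 40kb clone 2, 23.0 CPM in 70kb clone 2, 24.7 CPM in 40kb clone 1 and 26.4 CPM in the wild type of the 70kb set to 30.3 CPM in that of the 40kb set. Each neighbouring pair in this order overlapped except the 2 wild types. Nap1l2 ran from 1.09 CPM in 40kb clone 2 through 1.87 CPM in 40kb clone 1, 1.88 CPM in 70kb clone 1, 2.51 CPM in 70kb clone 2 and 3.05 CPM in the wild type of the 70kb set to 3.31 CPM in that of the 40kb set. There the overlapping neighbours were 40kb clone 1 with 70kb clone 1, and the wild types with each other. Tsx ran from 0.112 CPM in 70kb clone 1 through 0.173 CPM in 70kb clone 2, 0.445 CPM in 40kb clone 2, 0.454 CPM in the 40kb set's wild type and 0.564 CPM in the 70kb set's wild type to 0.790 CPM in 40kb clone 1. Only 40kb clone 2 and the 40kb set's wild type overlapped among its neighbouring pairs.

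**Figure D3:**
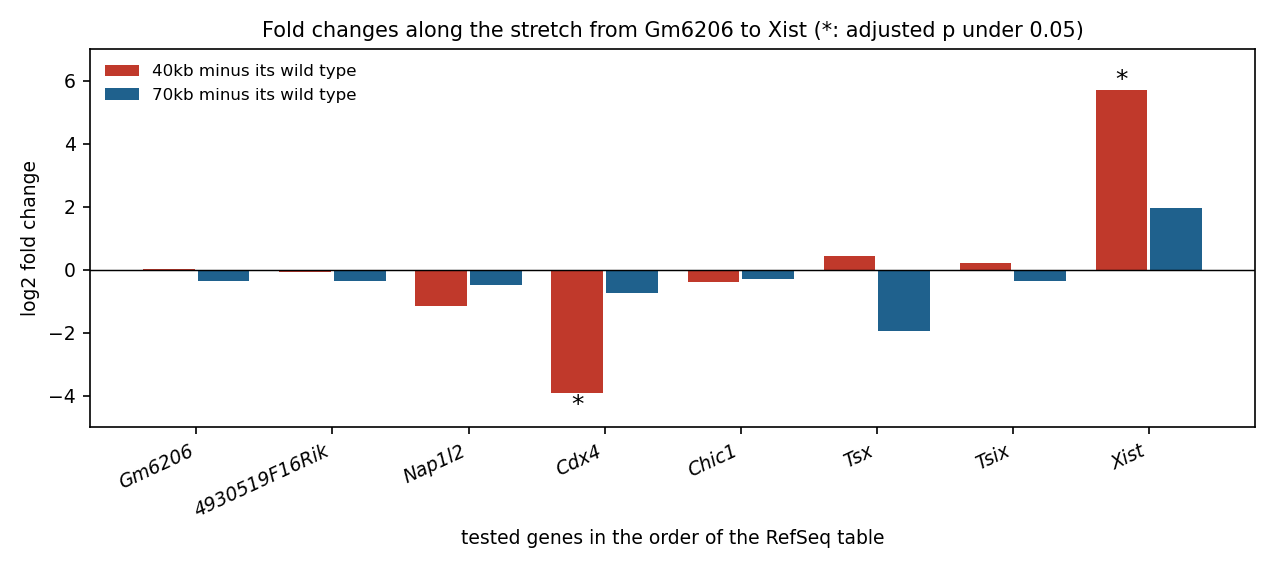
Log2 fold change of 8 tested genes in RefSeq gene order, with 40kb minus its wild type in red and 70kb minus its wild type in blue; the axis gives order and not distance, and a star marks an adjusted p under 0.05. In the 40kb comparison Cdx4 at -3.90 and Xist at 5.69 pass. In the 70kb comparison the 7 genes on the Tsix side of Xist all lie below 0, none of them called, where the median of all tested genes was 0.00.

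Along the chromosome, Nap1l2, Cdx4, Chic1, Tsx, Tsix and Xist follow each other in this order among the tested genes. Cdx4, a caudal-type homeobox gene that lies between Nap1l2 and Chic1, had 0.459 and 1.53 CPM in the wild type of the 70kb set. In 40kb libraries it had 0.0457, 0.136, 0.247 and 0.252 CPM, against a higher 2.20 and 2.91 CPM in their own wild type. That is a called log2 fold change of -3.90 (adjusted p = 0.0162, edgeR; no gene was called when either wild-type library of the set was left out), a larger fold change than at Nap1l2 or Chic1 on its sides. In the 70kb comparison Cdx4 was at -0.73 and Tsix at -0.35, and Gm6206 and 4930519F16Rik on the far side of Nap1l2 were both at -0.36 (adjusted p = 1 each, edgeR). In the 40kb comparison Gm6206 was at 0.01, 4930519F16Rik at -0.07 and Tsix at 0.23, none of them called. On the Xist side, the noncoding RNA gene Ftx was at -1.29 (adjusted p = 0.0201) and the ubiquitin ligase gene Rlim at -0.96 (adjusted p = 0.0162, edgeR) in 40kb libraries, and both were uncalled in 70kb libraries, at 0.73 and -0.02. The wild types differed at Ftx, with 13.7 and 15.2 CPM in the 40kb set and 7.78 and 8.86 CPM in the 70kb set. Its 40kb libraries, at 4.48 to 8.31 CPM, overlapped the latter. Those of Rlim lay below all 4 wild-type libraries, as 9.53% of tested genes did in that direction.

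Some reads of the 3 genes may be shared with a neighbour. The RefSeq span of Nap1l2, 2478 bases, lies wholly inside that of 4930519F16Rik, and the spans of Chic1 and Tsx share 81 bases on the same strand. Whether reads were assigned to genes by strand is stated in no source used here. The host gene 4930519F16Rik had 4.48, 4.78, 4.73 and 5.43 CPM in 40kb libraries against 5.999 and 4.20 CPM in wild type, groups that overlapped where those of Nap1l2 did not. Its 70kb libraries had 3.90 to 6.60 CPM against 7.85 and 5.25 CPM in wild type.

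Paralogs of the 3 genes elsewhere in the genome were read beside them. Chic2, Nap1l1, Nap1l3, Nap1l4 and Nap1l5 gave 0 of 5 called in either comparison, with a median log2 fold change of 0.03 in the 40kb and 0.00 in the 70kb comparison, where the medians of all tested genes were 0.06 and 0.00. Chic2, the partner of Chic1, was at 0.03 in 40kb and 0.00 in 70kb libraries. Nap1l3, another intronless X-linked family member, had 1.62, 1.09, 1.95 and 1.45 CPM in 40kb libraries against 2.36 and 2.58 CPM in wild type, all 4 below both (log2 fold change -0.69, SE 0.27, adjusted p = 0.145, edgeR), and was at 0.03 in 70kb libraries. Nap1l5, another family member, was covered by 1, 0, 1 and 0 reads in 70kb libraries against 10 and 7 reads in wild type, all 4 below both as for Tsx. Pooled, that is 0.0137 CPM (exact 95% Poisson interval 0.00166 to 0.0495) in 70kb libraries against 0.213 CPM (0.124 to 0.341) in wild type, with an adjusted p of 1 (edgeR). In the 40kb set it had 1 and 3 reads in clone 1 and 19 and 10 reads in clone 2, against 0 and 4 reads in wild type, groups that overlapped.

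The genes whose levels followed each member most closely were looked up over the 12 libraries by Pearson correlation of log2(CPM + 0.5), as a description. The libraries share alleles, clones and sets, and the genes were chosen as the highest for each member, so no p is given. For Chic1 they were C1qtnf12 (r = 0.876, Spearman rho 0.853), Parpbp (0.864, rho 0.839) and Phf20l1 (0.858, rho 0.811). For Nap1l2 they were Arfgef3 (r = 0.939, rho 0.909), Arhgap5 (0.935, rho 0.902) and Trove2 (0.929, rho 0.909). For Tsx, Sp4 (r = 0.922, rho 0.741) and Snora31 (0.906, rho 0.811) are given. Without the 2 libraries farthest from the member's median, the 8 values of r ran from 0.775 (C1qtnf12) to 0.938 (Arfgef3). None of the 3 members was among the genes named for another.

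**Figure D4:**
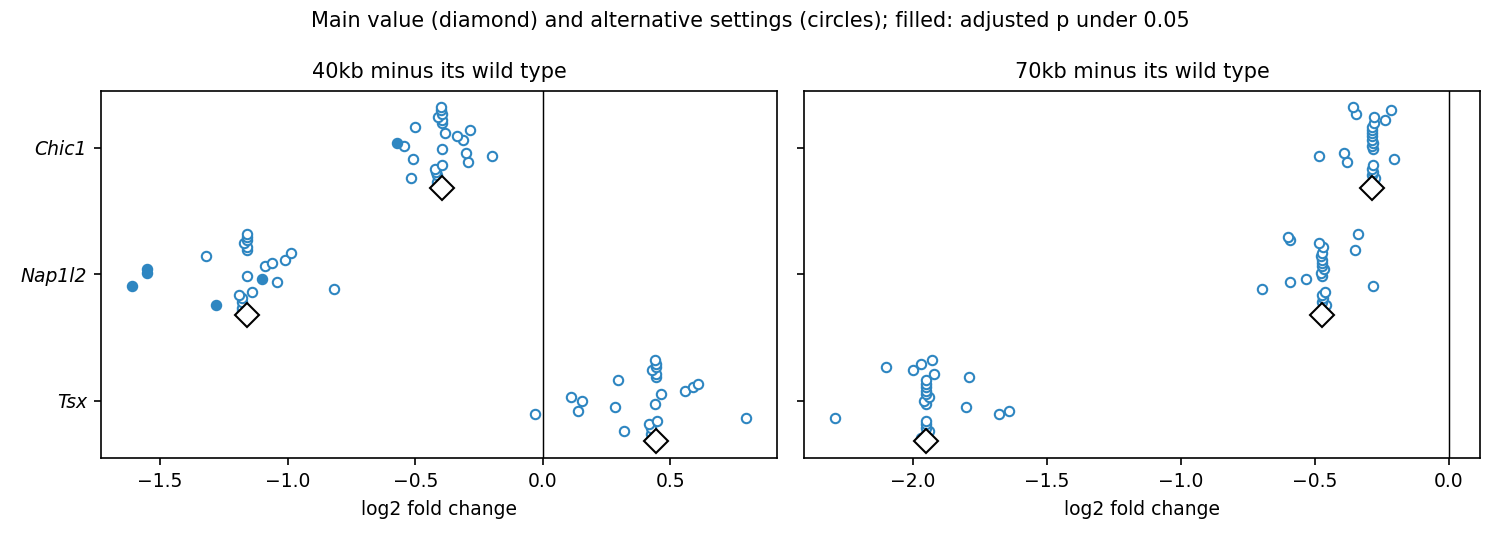
Log2 fold change of each gene in the 40kb (left) and 70kb (right) comparison under the main setting (black diamond) and under each alternative (blue circles, spread vertically for sight only), filled where the adjusted p is under 0.05. Tsx in the 70kb comparison stays between -2.29 and -1.64 and Nap1l2 in the 40kb comparison between -1.61 and -0.82, with filled circles for Nap1l2 and 1 for Chic1 in the 40kb comparison only.

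Under the other ways of processing the values kept the following ranges. In the 70kb comparison the log2 fold change ran over all alternatives from -2.29 to -1.64 for Tsx, from -0.70 to -0.28 for Nap1l2 and from -0.48 to -0.20 for Chic1, and none of these passed the test. In the 40kb comparison it ran from -1.61 to -0.82 for Nap1l2, from -0.57 to -0.20 for Chic1 and from -0.03 to 0.80 for Tsx, which is lowest in clone 2 alone and highest in clone 1 alone.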

How the data were processed

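RNA-seq libraries were made from polyadenylated RNA with a stranded kit, per the labels' protocols. The authors deposited 1 table of whole-number counts per gene for the 12 libraries; per the submitters' processing notes, mm9 was the build and STAR and edgeR were used, versions and settings not being given. Columns were matched to samples by the names in the descriptions, and groups were taken from the titles. Of 37310 gene identifiers 32620 matched a symbol. Files of chromosome conformation capture and RNA antisense purification were not used here.

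The test was that of edgeR 4.0.16 under R 4.3.3 (scaling by TMM, default filter on low counts, quasi-likelihood F test, 1 fit of 12 libraries with 4 group means and 8 residual degrees of freedom, or 6 group means and 6 degrees of freedom for clones). P-values were Benjamini-Hochberg adjusted over 16636 genes. The biological coefficient of variation was 23.8%. DESeq2 1.42.0 was an alternative. The low counts of Tsx limit its precision.

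Named genes were the 3 members, their neighbours in the RefSeq order, the listed neighbours and paralogs, and the 3 genes most correlated with each member. Predicted genes were left out of the correlations, and some genes that these rules name are not reported here. Members and lists were chosen with earlier results of these data known. Col1a1, Cdx2, Nes and Syt1 were named after their values were seen. Promoter windows are from RefSeq (GRCm38.p6), which held 2 of the 3 members.

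In the 70kb set same-numbered libraries also share a code in the table's sample names. Their deviations from the group means correlated at 0.794 (clone 1 with wild type), 0.309 (clone 2 with wild type) and 0.242 (between clones) over genes. Same-numbered libraries of different sets, which share no code, reached 0.431 (clone 2 of both alleles) and 0.384 (both wild types). The numbers were taken as pairing the 70kb libraries, but for clone 2 the correlations alone do not show it. The main fit holds no term for this pairing, so its standard errors, intervals and p-values ignore it. With the replicate number as a block, edgeR called 0 genes in the 70kb comparison, with 114 at an unadjusted p under 0.05.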

Additional observations from a re-analysis of the deposited data

Results flagged for a closer look

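Nap1l2 in 40kb clone 1 replicate 1, at 2.49 CPM, stood far above the other 3 libraries of its allele, which had 1.25, 1.16 and 1.01 CPM. The gap to the nearest library, as a share of the range, exceeded Dixon's 95% critical value of 0.829 for 4 samples. Chance flags about 1 in 20 groups, and 6 groups of 4 libraries were examined (3 genes in 2 alleles). Without this library the log2 fold change of Nap1l2 was -1.55 in place of -1.16.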

How the results depend on the processing

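Of 384 recomputed fold changes and differences of Chic1, Nap1l2 and Tsx, 368 kept their direction and their side of the threshold, 0 lost a call, 9 gained one and 7 changed sign. In the 40kb comparison Nap1l2 gained a call with DESeq2 (-1.18), library totals as scaling (-1.28), clone 2 alone (-1.61), all 4 wild-type libraries (-1.10), the sample-name code as a block (-1.55) and without 40kb clone 1 replicate 1 (-1.55), its values when 1 library was left out running from -1.55 to -0.99. Chic1 gained a call without the same library, with a range of -0.57 to -0.29. The difference of effects of Tsx gained a call with all 4 wild-type libraries (2.09), where it is the 40kb level minus the 70kb level between sets. Nap1l2 between the 40kb clones gained a call without clone 1 replicate 2, which leaves the library that stands apart as the single library of its clone, with a range of -1.20 to -0.20. Sign changes were all of uncalled values. The difference of effects of Chic1 was 0.0874 with all 4 wild-type libraries, where it too is the 40kb level minus the 70kb level. It ran from -0.29 to 0.00258 with 1 library left out. Chic1 between the 40kb clones was 0.46 with the sample-name code as a block and ran from -0.52 to 0.17. Nap1l2 between the wild types ran from -0.06 to 0.28, with -0.0577 without replicate 2 of the 40kb set and -0.00664 without replicate 1 of the 70kb set, and Tsx in 40kb clone 2 alone was -0.0314. Library totals moved the median of all genes in the 40kb comparison to -0.05, against 0.06 in the main setting, and relative to that median Nap1l2 was at -1.23 and -1.22. With the sample-name code as a block, replicate 1 of each 40kb clone is alone in its code and adds nothing to the 40kb values. These then compare replicate 2 of each clone with the wild-type library of the same code. That setting therefore also leaves out the library that stands apart. The cause of the remaining moves was not tested.

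Counts of called genes moved more. For the 40kb comparison they were 1070 in the main setting, 1874 with DESeq2, 3 with counts summed per clone, 2476 and 530 in clone 1 and clone 2 alone, 0 against the other set's wild type, 1614 with the replicate block and 357 with the sample-name code as a block. Leaving out 1 library gave 0 to 1511, 0 of them with either wild-type library of the 40kb set left out, 527 and 277 without 40kb clone 1 replicate 1 and 2, 279 without clone 2 replicate 1 and 592 without 70kb clone 2 replicate 1. For the 70kb comparison they were 0 in the main setting, 3 with DESeq2, 1 with no filter, in clone 1 alone and with all 4 wild-type libraries, and 0 to 1 with 1 library left out. For the difference of effects they were 0, with 399 (DESeq2), 10 (no filter) and 0 to 1 with 1 library left out. With all 4 wild-type libraries, where it is the 40kb level minus the 70kb level, they were 586. Between the 40kb clones 11 became 558 with DESeq2, 24 with library totals, 1317 with no filter, 406 with the replicate block, 0 with the sample-name code as a block and 1 to 2907 with 1 library left out. Between the 70kb clones 2 became 183 with DESeq2, 741 with no filter, 0 in the 70kb set alone, 152 with the replicate block, 347 with the code as a block and 1 to 2 with 1 library left out. Between the wild types the count was 0 in every setting run.

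The replicate block changed no call of the 3 genes. In the 40kb set the deviations of same-numbered libraries correlated at 0.171, 0.0214 and -0.156, so there the number was not taken as a pairing. Libraries of that set that share a sample-name code correlated at -0.0214 (clone 1 with wild type) and -0.156 (clone 2 with wild type). These values do not show the code to be a pairing there either. Tsx, with a mean under 50 counts, could not be tested under that filter. Counts summed per clone give no test between clones, and the code as a block none between the wild types, since the sets share no code.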
